A study of Mus musculus with 4 samples.

Results

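The genes described here encode the Eph receptors, the ephrins, the Slit ligands, the Robo receptors, the netrins, the netrin-G proteins and the Unc5 and Dcc receptors, and they were taken by symbol among the protein-coding genes. The symbol rule found 40 of the 55421 genes listed, and 36 of these were tested among 17144 genes that passed the filter on low counts. The cells came from the prefrontal cortex (PFC) of wild-type C57BL/6 mice at postnatal day 0, were dissociated with papain and were kept for 10 days in neurobasal medium with B27. The comparison is between 2 libraries of total RNA from cultures given FGF2 (fibroblast growth factor 2) at 5 ng/mL and 2 libraries from cultures that received no FGF2, and it asks what the growth factor changed in the culture. The cells were not sorted, so each library is the RNA of a mixture of cells. The gene counts of the FGF2 libraries summed to 9166432 and 9907613, and those of the other pair to 10460236 and 10799886. The libraries of a group are numbered 1 and 2, and the study's methods describe samples other than 2 human ages as technical replicates, without naming the mouse cultures. The p-values therefore measure the spread between libraries, which may leave out the variation between cultures.

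Guidance cues are membrane-bound or secreted proteins that attract or repel growing axons and migrating cells. Eph receptors are receptor tyrosine kinases that bind ephrins on neighbouring cells, and signals run both into the receptor cell and back into the ephrin cell. Ephrin-A proteins are held to the membrane by a lipid anchor, while ephrin-B proteins span it. Secreted Slit proteins repel axons and migrating cells that carry Robo receptors. Netrins attract through Dcc and repel through Unc5 receptors, and the related netrin-G proteins are anchored to axons and bind partners at synapses. In the cortex these families act in neuron migration, area borders, axon tracts and synapse formation, and astrocytes and oligodendrocyte precursors also make several of them.

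With FGF2, Slit1, Robo1, Robo2, the ephrins Efna3, Efnb2 and Efnb3, Unc5a, Unc5d and most EphA receptors were lower. Ephb4, Ntn4, Ntng1 and Dcc were higher, and so was Ntn1, whose call was lost with DESeq2. An adjusted p below 0.05 (edgeR quasi-likelihood test, Benjamini-Hochberg over all 17144 genes) is the threshold for a rise or a fall. It was passed by 23 of the 36 tested guidance genes (63.9%), beside 40.5% of all tested genes, a share that was not matched for level. Of the 36 genes, 8 rose, where 20.7% of all genes rose, and 15 fell, where 19.9% of all genes fell. The median log2 fold change of FGF2 over no FGF2 was -0.13 over the 36 genes and -0.001 over all tested genes, and the 36 values ran from -1.64 to 1.37. Groups of 2 libraries did not overlap in 29 of the 36 genes, but neither did they in 11496 of all 17144 tested genes (67.1%), so a lack of overlap is the usual case here. Only Epha8 and Epha10 passed the threshold with a change of over 2-fold, which is 5.6% of the guidance genes, beside 7.60% of all genes. By role, 10 of the 20 tested receptors fell and 4 rose, and 5 of the 14 tested ligands fell and 3 rose. A call that was lost with DESeq2 is named at its gene below, and this was the case for 7 genes.

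Levels are given in CPM, which puts all libraries on the same total after TMM adjustment, and the 2 values of a group are in the order of replicates 1 and 2. Of the 4 genes that were not tested, Ntn5, a netrin family member, had 0 counts in every library, where 3 counts would be 0.277 to 0.331 CPM. Epha1 had 1, 0, 0 and 0 counts in the libraries with FGF2 and then without. Robo4, the Robo receptor of endothelial cells, was at 1 and 2 counts with FGF2 against 4 and 1 otherwise. Robo3, known from commissural axons, was at 13 and 6 counts with FGF2 against 1 and 5 otherwise. No difference was tested in these genes at this depth. In 4 members another annotated gene overlapped over 10% of the exons. Ntng2 shared 14.0% of its exonic bases with 6530402F18Rik on the same strand, and Efna3, Efna4 and Ntn5 shared 14.1%, 10.5% and 23.4% with genes on the opposite strand, whose counts were at most 7 in any library. Near-identical stretches in another gene (100 bases or longer, 95% identity or higher) were found for 9 members, Efna3, Efna4, Epha1, Epha6, Ephb1, Ntn3, Ntn5, Ntng2 and Unc5c. For Epha1, Epha6 and Ephb1 a gene that does not overlap the member was among the matches.

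**Figure D1:**
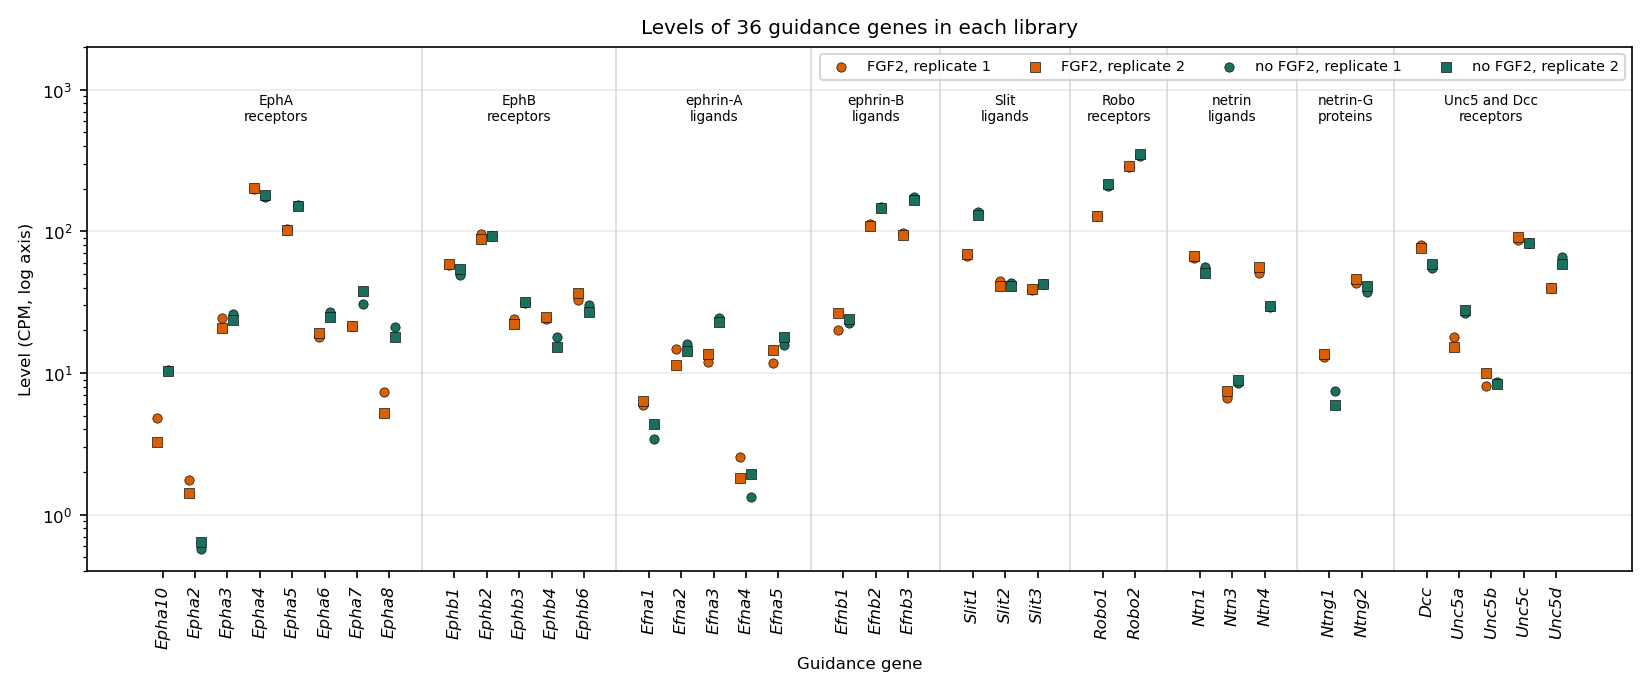
Level of each of the 36 tested guidance genes in CPM on a log axis, in 4 libraries, with circles for replicate 1, squares for replicate 2, orange for FGF2 and green for no FGF2. The orange points of Slit1, Robo1, Efnb3 and Epha8 lie below the green ones, those of Ntn4 and Ntng1 lie above, and those of Ephb2, Efnb1 and Slit2 overlap the green ones.

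Markers of several cell types moved with the treatment. The summed level of 10 pan-neuronal markers was 2948 to 2982 CPM with FGF2 and 4027 to 4058 CPM without, with 8 of the 10 lower and 1 higher. All 8 inhibitory neuron markers fell, and their sum was 666.5 to 675.8 CPM with FGF2 and 1107 to 1135 CPM without. Excitatory neuron markers fell in 5 of 8 cases, with sums of 565.9 to 589.5 and 784.5 to 807 CPM. In contrast, 7 of 8 astrocyte markers rose, with sums of 12340 to 12460 CPM with FGF2 and 7498 to 7546 CPM without. Gfap alone had a mean of 5793 CPM with FGF2 and 2776 CPM without, so much of the difference between these sums is that of Gfap. Oligodendrocyte lineage markers rose in 9 of 9 tested cases out of 10 listed, from 536.9 to 543.8 CPM without FGF2 to 1835 to 1868 CPM with it. Neural progenitor markers were split, with 4 of 8 higher and 3 lower and sums of 2151 CPM with FGF2 and 1307 to 1360 CPM without. Vim alone had a mean of 1575 CPM with FGF2 and 674 CPM without, so these sums mainly follow Vim and do not describe the other markers. Proliferation markers fell in 5 of 6 cases, with sums of 141.3 to 147.1 and 195.4 to 195.5 CPM. Microglial markers were low, at 11.9 to 14.84 CPM with FGF2 and 5.806 to 6.096 CPM without, with 2 of 3 tested genes of 7 listed higher. Endothelial markers summed to 8.032 to 10.36 and 5.711 to 9.514 CPM, with 1 higher and 1 lower of 3 tested out of 8, and Cldn5 and Tie1 had no count in any library. Mural and meningeal fibroblast markers summed to 65.58 to 69.54 and 56.73 to 56.99 CPM, with 2 higher and 3 lower of 7 tested out of 9.

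The log2 fold changes of the guidance genes can be set beside the ranges of these markers. The ranges are wide, and only 7.60% of all tested genes passed the threshold with a change of over 2-fold. The share of all called genes inside each range was not counted, so the counts below do not set the guidance genes apart from other genes. The log2 fold changes of the 10 pan-neuronal markers ran from -1.10 to 0.38, and 13 of the 15 guidance genes that fell had a value in this range, with Epha8 and Epha10 below it. Any fall of up to 2-fold lies in this range. The 8 inhibitory neuron markers ran from -1.57 to -0.39. Of the 15 falling guidance genes, 12 lay in that range, with Epha8 below it and Efna5 and Robo2 above it. The 8 astrocyte markers ran from -0.18 to 1.06, and all 8 guidance genes that rose lay in this range, as any rise of up to 2-fold must. Oligodendrocyte lineage markers ran from 0.37 to 3.02, and 5 of the 8 rising genes lay in that range, with Epha4, Ephb6 and Ntn1 below it. In bulk RNA, fewer cells of a type and less RNA of a gene per cell cannot be told apart, and the part of cell composition in the values below was not tested.

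The EphA receptors, which mainly bind ephrin-A ligands, held the largest changes of the guidance genes. Of 8 tested EphA receptors, 5 fell, 1 rose and 2 did not pass the threshold. Epha8 lies on chromosome 4 from 136929419 to 136956816 (mm10, minus strand) and measured 7.38 and 5.19 CPM with FGF2 and 21.2 and 17.8 CPM without. Its libraries with FGF2 were both far below those without, a fall of 1.64 on the log2 scale (SE 0.18, adjusted p = 7.12e-19), or 3.12-fold lower. Epha10, an Eph receptor with an inactive kinase domain, is on the same chromosome from 124880899 to 124917800 on the plus strand. Its counts were 44 and 32 with FGF2 and 110 and 112 without, or 4.85 and 3.25 against 10.5 and 10.3 CPM. Epha10 was therefore 2.58-fold lower with FGF2 (log2 -1.37, SE 0.23, adjusted p = 4.02e-08). Both genes are low in level, and replicate 2 with FGF2 was the lowest library for both.

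Epha5 and Epha7, receptors of topographic mapping and of cortical and limbic axons, fell less steeply. Epha5 measured 104.3 and 102.3 CPM with FGF2 and 154.2 and 149.9 CPM without (log2 -0.56, SE 0.06, adjusted p = 3.14e-19). Epha7 measured 21.6 and 21.6 CPM with FGF2 and 30.7 and 38.1 CPM without (log2 -0.67, SE 0.12, adjusted p = 7.92e-08), and its 2 libraries without FGF2 lay further apart than those with it. Epha6 was at 17.9 and 19.1 CPM with FGF2 and 26.7 and 24.8 CPM without (log2 -0.48, SE 0.13, adjusted p = 9.28e-04), a call that DESeq2 did not give (adjusted p = 0.0623). Epha4, which binds ephrins of both classes, went the other way. It measured 198.3 and 201.4 CPM with FGF2 and 174.7 and 179.4 CPM without, a difference of 1.13-fold (log2 0.17, SE 0.05, adjusted p = 0.00209). This call was lost with DESeq2 (adjusted p = 0.0571) and when replicate 1 of the untreated group was left out (adjusted p = 0.0864). Epha3 overlapped between the groups, at 24.5 and 20.8 CPM with FGF2 and 26.0 and 23.6 CPM without, with a 95% interval of -0.38 to 0.12 for its log2 fold change. Counts of Epha2, a receptor more typical of epithelia and progenitors, were 16 and 14 with FGF2 but 6 and 7 in the untreated libraries. Its log2 fold change of 1.37 had a wide 95% interval of 0.19 to 2.54 and missed the threshold (adjusted p = 0.0541).

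The share of each receptor in the EphA class also differed between the groups. Between genes, levels are compared as CPM per kilobase of exon, using the union of all annotated exons as the length. On that scale Epha4 made up 45.8% of the EphA receptor level without FGF2 and 59.8% with it. Epha5 went from 18.9% to 14.9% and Epha8 from 8.63% to 3.21%. The summed EphA level was 48.0 ± 0.213 CPM per kilobase without FGF2 and 41.5 ± 0.493 with it (SD, n = 2).

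Among 5 EphB receptors, which mainly bind ephrin-B ligands, 2 rose, 1 fell and 2 did not pass the threshold. Ephb4, known from vascular development and also found on neural precursors, measured 24.0 and 24.9 CPM with FGF2 and 17.99 and 15.3 CPM without (log2 0.56, SE 0.13, adjusted p = 1.68e-04). Ephb6, which lacks kinase activity, measured 32.7 and 36.8 CPM with FGF2 and 30.4 and 27.2 CPM without (log2 0.28, SE 0.11, adjusted p = 0.0328). The Ephb6 call was lost with DESeq2 (adjusted p = 0.285) and without replicate 2 of either group. Ephb3 measured 24.0 and 22.2 CPM with FGF2 and 31.1 and 31.5 CPM without (log2 -0.44, SE 0.12, adjusted p = 8.27e-04), and DESeq2 placed it just outside the threshold (adjusted p = 0.0566). Ephb2, a receptor of excitatory synapses, overlapped between the groups at 95.2 and 88.8 CPM with FGF2 and 93.27 and 92 CPM without, with a 95% interval of -0.15 to 0.12 for the log2 fold change. Ephb1 measured 57.5 and 58.6 CPM with FGF2 and 48.8 and 54.2 CPM without, and its 95% interval of 0.004 to 0.34 came with an adjusted p of 0.0976.

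Both directions were also seen in the ephrin-A ligands, with 2 of 5 lower, 1 higher and 2 past no threshold. Efna3 had the largest change of the class, at 12.01 and 13.7 CPM with FGF2 and 24.5 and 22.9 CPM without, which is 1.84-fold lower with FGF2 (log2 -0.88, SE 0.14, adjusted p = 9.28e-09). Efna3 overlaps Gm15998 on the opposite strand, which had 4 to 7 counts per library. Efna5, a repellent of topographic maps, measured 11.7 and 14.4 CPM with FGF2 and 15.7 and 18.01 CPM without (log2 -0.36, SE 0.16, adjusted p = 0.0471). Efna1 measured 5.95 and 6.30 CPM with FGF2 and 3.43 and 4.34 CPM without (log2 0.66, SE 0.27, adjusted p = 0.0429). Both values are at the edge of the threshold. With DESeq2 the adjusted p was 0.33 for Efna5 and 0.299 for Efna1. Both calls were also lost with limma-voom and without the expression filter, and Efna1 lost its call whichever library was left out. Efna5 lost it without replicate 1 with FGF2, where its log2 fold change was -0.23, and without either library of the cultures without FGF2. Efna2 overlapped between the groups at 14.7 and 11.4 CPM with FGF2 and 16.1 and 14.4 CPM without, and Efna4 overlapped too, with counts of 23 and 18 against 14 and 21.

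Of the ephrin-B ligands, which can themselves signal into the cell that carries them, Efnb2 and Efnb3 fell and Efnb1 did not pass the threshold. Efnb3 (chromosome 11 from 69554092 to 69560205, minus strand) measured 97.3 and 94.2 CPM with FGF2 and 174.1 and 165.8 CPM without. The groups were far apart, and Efnb3 was 1.78-fold lower with FGF2 (log2 -0.83, SE 0.06, adjusted p = 3.63e-42). Efnb2 was at 112.4 and 109.2 CPM with FGF2 and 148.9 and 146.5 CPM without (log2 -0.41, SE 0.06, adjusted p = 3.73e-11). Efnb1 measured 20.1 and 26.4 CPM with FGF2 and 22.5 and 24.2 CPM without, and its 95% interval was -0.25 to 0.25. Per kilobase of exon Efnb3 was the highest of all guidance genes in both groups, at 30.1 with FGF2 and 53.4 without. When the longest annotated transcript was used as the length, a choice added after the data were seen, Efnb3 stayed first without FGF2 and ranked 3 with it, after Robo2 and Epha4.

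Slit1 was the Slit ligand that fell, while Slit2 and Slit3 did not pass the threshold. Slit1 (chromosome 19 from 41600257 to 41743665, minus strand) measured 67.4 and 69.1 CPM with FGF2 and 137.9 and 129.9 CPM without. It was 1.96-fold lower with FGF2 (log2 -0.97, SE 0.07, adjusted p = 3.05e-45), the lowest adjusted p of the guidance genes. Slit2 overlapped between the groups at 44.5 and 41.3 CPM with FGF2 and 43.2 and 41.3 CPM without, with a 95% interval of -0.17 to 0.21. For Slit3 the values were 38.4 and 39.4 CPM with FGF2 and 42.4 and 42.4 CPM without (95% interval -0.32 to 0.07). As a result Slit1 made up 58.7% of the Slit level per kilobase with FGF2 and 72.3% without. Differences between Slit1 and the other Slit genes in their response are given below as ratios within each library.

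Both Robo receptors that were tested fell, Robo1 more than Robo2. Robo1 (chromosome 16 from 72308306 to 73046095, plus strand) measured 127.5 and 127.6 CPM with FGF2 and 207.7 and 214.2 CPM without. It was 1.65-fold lower with FGF2 (log2 -0.73, SE 0.05, adjusted p = 3.58e-40). Robo2, on the same chromosome from 73891839 to 74411825 on the minus strand, measured 285.5 and 288.2 CPM with FGF2 and 341.1 and 351.5 CPM without (log2 -0.27, SE 0.04, adjusted p = 1.46e-09). The 95% intervals of the log2 fold changes, -0.83 to -0.62 for Robo1 and -0.35 to -0.19 for Robo2, did not overlap each other. Among the Slit and Robo genes, 3 of the 5 tested fell and none rose with edgeR, and Slit2 and Slit3 did not pass the threshold in any alternative run.

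**Figure D2:**
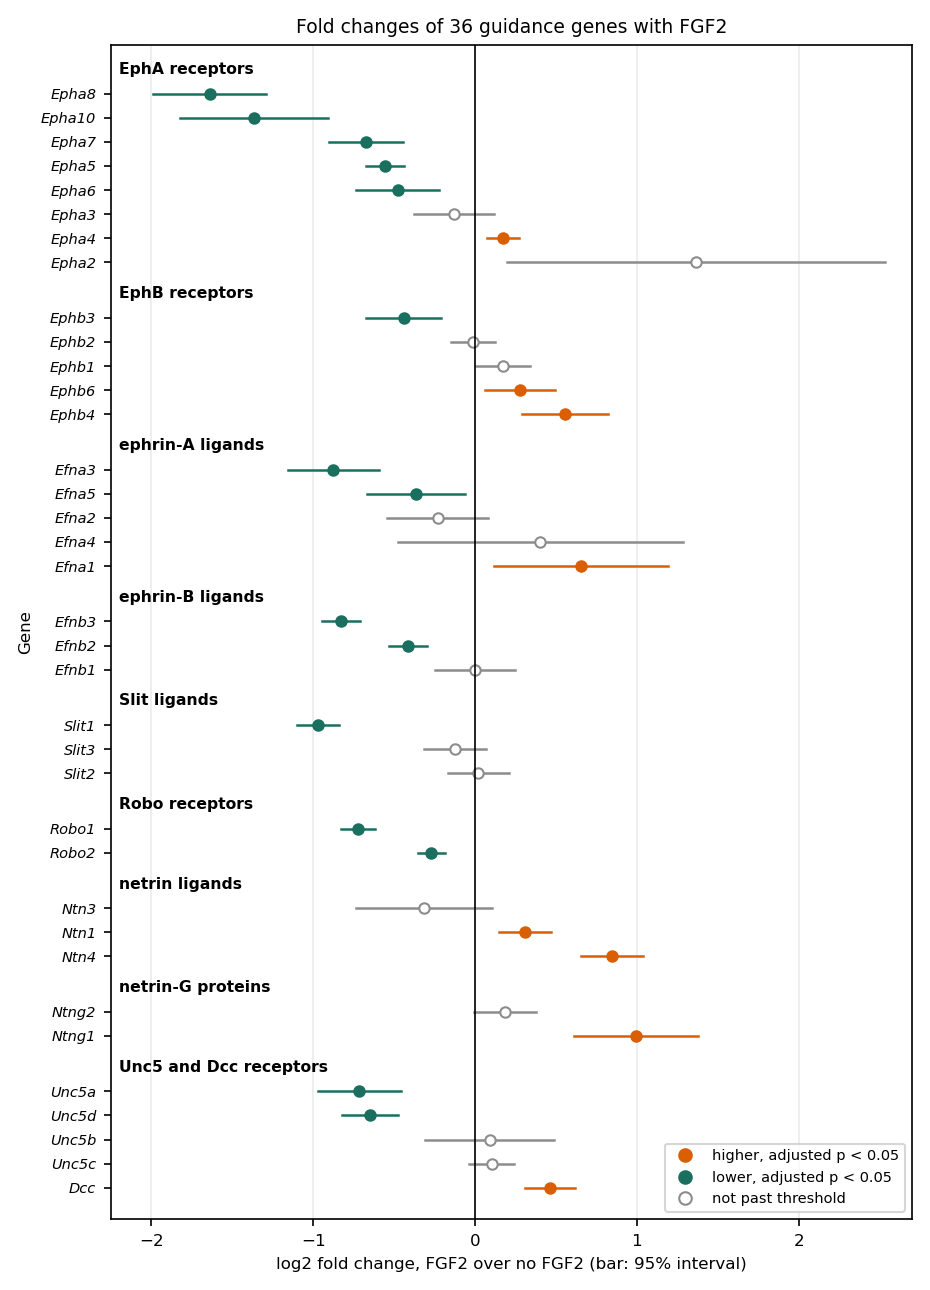
Log2 fold change of FGF2 over no FGF2 for the 36 tested guidance genes, grouped by class, with bars for the 95% interval from edgeR. Filled orange points rose and filled green points fell at an adjusted p below 0.05, and Epha8 at -1.64 is furthest to the left while the open point of Epha2 at 1.37 has the widest bar.

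Of 3 tested netrins, Ntn4 and Ntn1 rose and Ntn3 did not pass the threshold. Ntn4, a laminin-related netrin of basement membranes, lies on chromosome 10 from 93640681 to 93747207 on the plus strand. It measured 50.5 and 55.8 CPM with FGF2 and 29.2 and 29.9 CPM without, so it was 1.80-fold higher with FGF2 (log2 0.85, SE 0.10, adjusted p = 1.61e-16). Ntn1, the best-known attractant of the family, measured 65.4 and 67.0 CPM with FGF2 and 56.2 and 50.7 CPM without (log2 0.31, SE 0.08, adjusted p = 7.9e-04). The Ntn1 call was lost with DESeq2 (adjusted p = 0.0568) and when replicate 2 of the untreated group was left out (adjusted p = 0.088). Counts of Ntn3 were 60 and 73 with FGF2 against 90 and 97 in the untreated libraries, with an adjusted p of 0.243. Astrocyte and oligodendrocyte lineage markers also rose with FGF2, with the sums given above, and the part of those cells in the Ntn4 value was not tested.

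Ntng1, a netrin-G protein of thalamocortical and other axons, had the largest rise among the called genes. It lies on chromosome 3 from 109780040 to 110144011 on the minus strand with counts of 118 and 135 in the FGF2 libraries and 79 and 64 in the others. This is 13.0 and 13.7 CPM against 7.52 and 5.91 CPM, a rise of 1.99-fold (log2 0.99, SE 0.19, adjusted p = 2.12e-06). Ntng2 was at 42.9 and 46.4 CPM with FGF2 and 37.5 and 41.0 CPM without, and its 95% interval of -0.004 to 0.37 missed the threshold (adjusted p = 0.116). Reads of Ntng2 can be hard to assign where it overlaps 6530402F18Rik, whose counts were 132 and 189 with FGF2 against 163 and 193 otherwise.

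Of the 5 netrin receptors, Dcc rose, Unc5a and Unc5d fell, and Unc5b and Unc5c did not pass the threshold. Dcc, through which netrins attract, measured 80.0 and 76.8 CPM with FGF2 and 54.7 and 59.0 CPM without, and it was 1.38-fold higher with FGF2 (log2 0.46, SE 0.08, adjusted p = 3.4e-08). Unc5a, a repulsive netrin receptor, measured 18.1 and 15.3 CPM with FGF2 and 26.6 and 27.99 CPM without (log2 -0.71, SE 0.13, adjusted p = 3.89e-07). Unc5d, a receptor known from migrating cortical neurons and as a partner of Flrt proteins, was at 40.0 and 39.6 CPM with FGF2 and 66.0 and 58.8 CPM without (log2 -0.65, SE 0.09, adjusted p = 3.98e-12). Unc5c measured 86.7 and 91.1 CPM with FGF2 and 82.9 and 82.6 CPM without, with a 95% interval of -0.03 to 0.24. Unc5b overlapped between the groups, at 8.16 and 9.96 CPM with FGF2 and 8.66 and 8.41 CPM without, with a 95% interval of -0.31 to 0.49. Over the netrins, netrin-G proteins, Unc5 genes and Dcc, 4 of the 10 tested genes rose and 2 fell.

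Promoters were read from RefSeq (GRCm38.p6, from 250 bases before to 50 after the annotated start) for 35 of the 40 genes, and those of Epha8, Epha10, Ntng1 and Ntn4 are shown because these are the 2 largest falls and the 2 largest rises among called genes with a promoter entry and a mean of at least 5 CPM. The windows are chr4:136956767-136957066 on the minus strand for Epha8, chr4:124881535-124881834 on the plus strand for Epha10, chr3:110143423-110143722 on the minus strand for Ntng1 and chr10:93640799-93641098 on the plus strand for Ntn4. Capitals mark matches to the GC box GGGCGG on either strand, and each sequence reads from the upstream end toward the gene.
Epha8: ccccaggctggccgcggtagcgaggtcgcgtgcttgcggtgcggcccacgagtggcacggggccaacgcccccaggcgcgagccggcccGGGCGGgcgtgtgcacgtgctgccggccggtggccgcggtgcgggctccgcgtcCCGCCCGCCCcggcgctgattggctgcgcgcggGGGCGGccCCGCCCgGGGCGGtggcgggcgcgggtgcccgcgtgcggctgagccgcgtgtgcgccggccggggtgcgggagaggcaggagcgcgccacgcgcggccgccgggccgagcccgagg
Epha10: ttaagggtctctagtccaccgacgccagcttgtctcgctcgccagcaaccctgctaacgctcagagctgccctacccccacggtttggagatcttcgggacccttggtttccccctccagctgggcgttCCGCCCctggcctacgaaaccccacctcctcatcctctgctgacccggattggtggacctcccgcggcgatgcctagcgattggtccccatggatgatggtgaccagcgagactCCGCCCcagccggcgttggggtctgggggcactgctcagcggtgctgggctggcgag
Ntng1: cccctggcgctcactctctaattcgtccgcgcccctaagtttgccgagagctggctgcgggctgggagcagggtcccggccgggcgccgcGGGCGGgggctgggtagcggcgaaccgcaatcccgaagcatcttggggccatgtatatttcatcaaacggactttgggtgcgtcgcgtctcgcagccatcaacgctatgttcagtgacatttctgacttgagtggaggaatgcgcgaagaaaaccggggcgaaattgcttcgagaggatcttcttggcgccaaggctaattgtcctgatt
Ntn4: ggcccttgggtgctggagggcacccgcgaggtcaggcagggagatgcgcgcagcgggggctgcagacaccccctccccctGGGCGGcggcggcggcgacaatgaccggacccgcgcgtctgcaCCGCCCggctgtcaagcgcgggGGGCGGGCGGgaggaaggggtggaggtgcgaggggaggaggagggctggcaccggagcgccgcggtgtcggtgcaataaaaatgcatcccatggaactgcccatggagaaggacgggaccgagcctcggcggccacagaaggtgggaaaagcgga

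These windows hold 6, 2, 1 and 4 GC box matches in the order shown. The GC box was found in 24 of the 35 promoters and in 35.66% of 32851 promoters of the same length in the table, and it was in 10 of 12 promoters of genes that fell and in 6 of 6 of genes that rose. Median CG dinucleotide counts were 25.5 in promoters of genes that fell, 24 in those of genes that rose, 21 in the 35 guidance gene promoters together and 7 in all 32851 promoters. The guidance genes as a whole were thus rich in CG, and a link of the GC box or CG count to the change with FGF2 was not tested. No capitals stand for other motifs in the 4 windows, since none of the other motifs searched had a match there. The AP-1 motif TGANTCA was in 0 of the 35 promoters and in 7.81% of all, the CRE TGACGTCA was in Epha2 (1.79% of all), and the ETS motif CCGGAAG was in Ephb6 (8.86% of all). The SOX motif ACAAAG was in Efna2 and Efna4 (18.71% of all) and the TATA motif TATAAA in Efnb2 and Slit2 (13.62% of all). Both strands were searched, motifs could overlap, and the annotated 5′ end of the gene in GENCODE lies 0, 886, 539 and 368 bases from the start used for Epha8, Epha10, Ntng1 and Ntn4.

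Summed over each class, the levels per kilobase of exon did not overlap between the groups in any of the classes, with 6 classes lower and 3 higher with FGF2. The groups also did not overlap in 67.1% of all single tested genes, and the share for sums of other genes was not counted. Ephrin-B ligands were the highest class, at 81.7 ± 1.73 CPM per kilobase without FGF2 and 53.0 ± 0.273 with it (SD, n = 2). Slit ligands went from 31.3 ± 1.01 without FGF2 to 19.6 ± 0.240 with it and Robo receptors from 33.3 ± 0.709 to 24.8 ± 0.0440. Ephrin-A ligands were at 24.2 ± 0.0193 without FGF2 and 19.4 ± 0.279 with it. Netrin ligands showed the reverse, with 18.1 ± 0.436 without FGF2 and 26.1 ± 1.31 with it, as did EphB receptors with 30.6 ± 0.493 and 33.6 ± 0.443 and netrin-G proteins with 10.7 ± 0.484 and 12.8 ± 0.681. The Unc5 and Dcc receptors were at 23.3 ± 0.113 without FGF2 and 20.4 ± 0.322 with it. The direction held for every class without division by length and with the longest transcript as length, but the log2 ratio of the Unc5 and Dcc sum was -0.20 with exon length, -0.12 with transcript length and -0.03 without length.

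**Figure D3:**
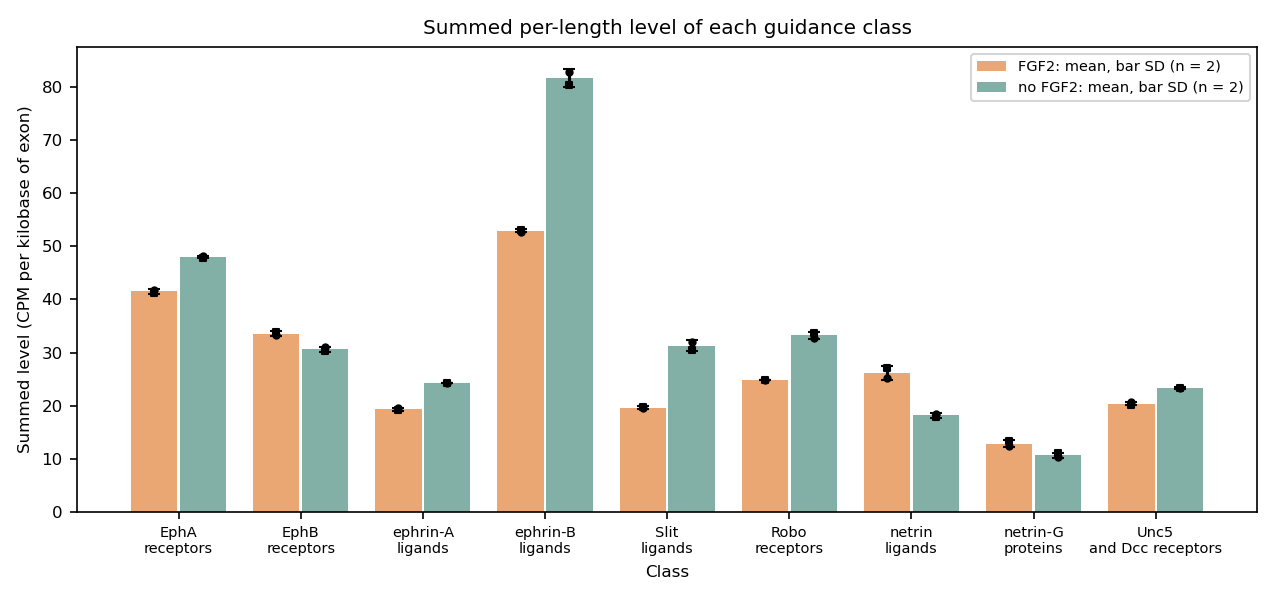
Summed level of each guidance class in CPM per kilobase of exon, with bars for the mean of 2 libraries, error bars for the SD, circles for replicate 1 and squares for replicate 2. The ephrin-B bar without FGF2 is the tallest at 81.7, and the netrin, netrin-G and EphB bars are the ones that are higher with FGF2.

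Ratios of related genes inside a library do not depend on the library total, and 9 pairs, chosen after the values had been seen, show how balances shifted. Slit1 exceeded Slit2 per kilobase by 6.51 and 7.19 times with FGF2 and by 13.7 and 13.5 times without. With the longest transcript as length the means of this ratio were 2.80 and 5.56, because the union of Slit2 exons is much longer than its longest transcript. For Slit1 over Slit3 the ratios were 1.80 and 1.80 with FGF2 and 3.34 and 3.14 without. Robo1 over Robo2 stood at 0.459 and 0.455 with FGF2 and 0.626 and 0.627 without, so Robo2 was the higher of the pair in every library. Among the ephrin and Eph genes, Efnb3 over Efnb1 was 5.26 and 3.86 with FGF2 and 8.41 and 7.43 without, and Epha4 over Epha5 was 3.95 and 4.09 with FGF2 and 2.36 and 2.49 without. With the longest transcript as length, the means of Epha4 over Epha5 were lower, at 2.24 with FGF2 and 1.35 without.

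In the netrin system some ratios crossed 1. Dcc over Unc5d was 1.40 and 1.36 with FGF2 and 0.581 and 0.702 without, and Dcc over Unc5a was 1.40 and 1.59 with FGF2 and 0.652 and 0.667 without. In the group means, Dcc was above both Unc5 genes with FGF2 and below them without it with either length. Ntn4 over Ntn1 was 1.30 and 1.40 with FGF2 and 0.872 and 0.990 without. Ntng1 over Ntng2 was 0.147 and 0.143 with FGF2 and 0.0971 and 0.0698 without, so that Ntng2 stayed the higher of the netrin-G genes. The groups did not overlap in any of the 9 pairs, and each pair had an exact two-sided permutation p of 0.333, the smallest that 2 libraries against 2 can give. Because the pairs were chosen with the values known, neither the lack of overlap nor this p tests a shift in balance. The share of other gene pairs without overlap was not counted.

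**Figure D4:**
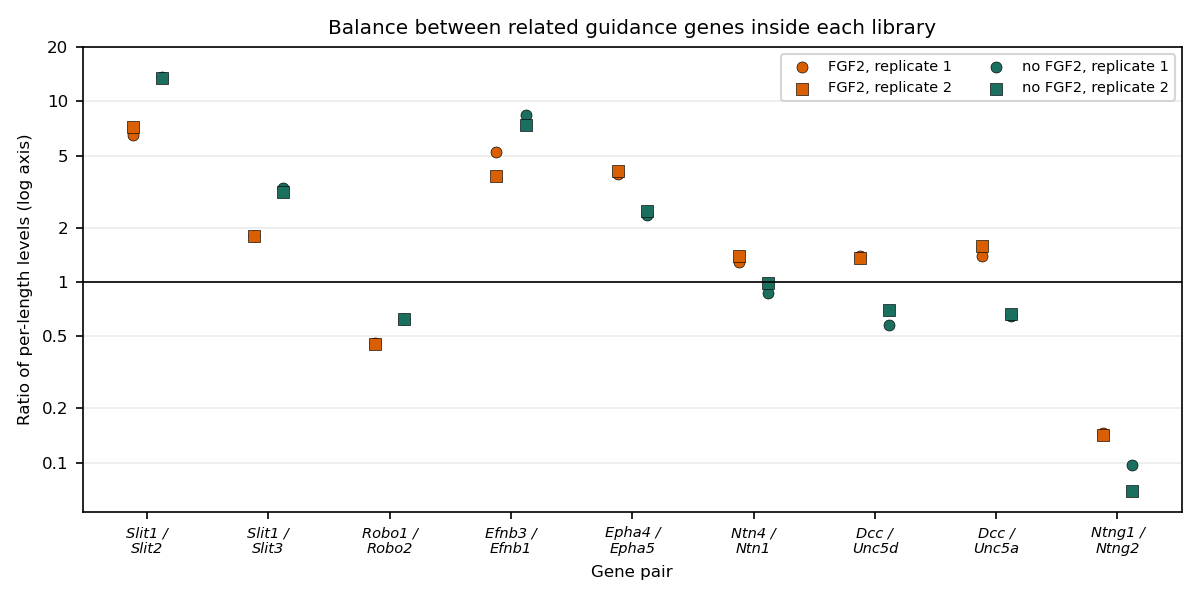
Ratio of the per-kilobase levels of 9 gene pairs in each library on a log axis, with orange for FGF2, green for no FGF2, circles for replicate 1, squares for replicate 2 and a line at a ratio of 1. Dcc lies above Unc5a and Unc5d with FGF2 and below them without, and Slit1 over Slit2 has the highest ratios, at 13.7 and 13.5 without FGF2.

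Signalling partners of these families, 39 genes that were all tested, numbered 21 lower and 8 higher (74.4%, beside 40.5% of all genes). The 40.5% was not matched to the partners for level. None passed the threshold with a change of over 2-fold, beside 7.60% of all tested genes. Of 13 Eph and ephrin partners, 9 fell and 2 rose, with a median log2 fold change of -0.30. Ngef, whose protein binds EphA receptors, measured 40.4 and 39.3 CPM with FGF2 and 55.9 and 64.9 CPM without (log2 -0.60, SE 0.09, adjusted p = 2.43e-10). Sipa1l1, a Rap GTPase-activating protein of spines, had a log2 fold change of -0.56 (adjusted p = 1.42e-42) and Tiam1, a Rac exchange factor, one of -0.50 (adjusted p = 7.1e-14). The Ras GTPase-activating gene Rasa1 rose by 0.25 (adjusted p = 0.00518) and Adam10, a protease that cuts ephrins, by 0.23 (adjusted p = 6.05e-04) on the log2 scale, and DESeq2 called neither.

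Of 8 Slit and Robo partners, 5 fell and 1 rose, with a median of -0.22. The GTPase-activating genes Srgap3 and Srgap1, whose proteins bind Robo, had log2 fold changes of -0.43 (adjusted p = 2.4e-31) and -0.40 (adjusted p = 5.08e-10). Enah, an actin regulator at filopodia tips, had a value of -0.26 (adjusted p = 3.86e-09). The kinase gene Abl1, which acts downstream of Robo, rose by 0.29 (adjusted p = 5.05e-06).

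Of 18 partners of netrin, Unc5 and Dcc, 7 fell and 5 rose, with a median of -0.13. Dock1, a Rac exchange factor, measured 202.2 and 190.8 CPM with FGF2 and 127.6 and 122.5 CPM without (log2 0.65, SE 0.05, adjusted p = 1.97e-31). Fyn, a Src family kinase that phosphorylates Dcc, measured 377.5 and 375.7 CPM with FGF2 and 239.3 and 246.7 CPM without (log2 0.63, SE 0.04, adjusted p = 2.71e-47). Myo10, a motor of filopodia, rose by 0.26 (adjusted p = 1.77e-09). The ubiquitin ligase gene Trim67 fell by 0.75 (adjusted p = 6.09e-28), the Unc5-binding Flrt1 by 0.66 (adjusted p = 3.06e-09) and Rgmb, a ligand of neogenin, by 0.64 (adjusted p = 1.35e-24) on the log2 scale. Fyn is also known from oligodendrocytes, whose lineage markers rose as given above, and the part of those cells in its value was not tested.

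**Figure D5:**
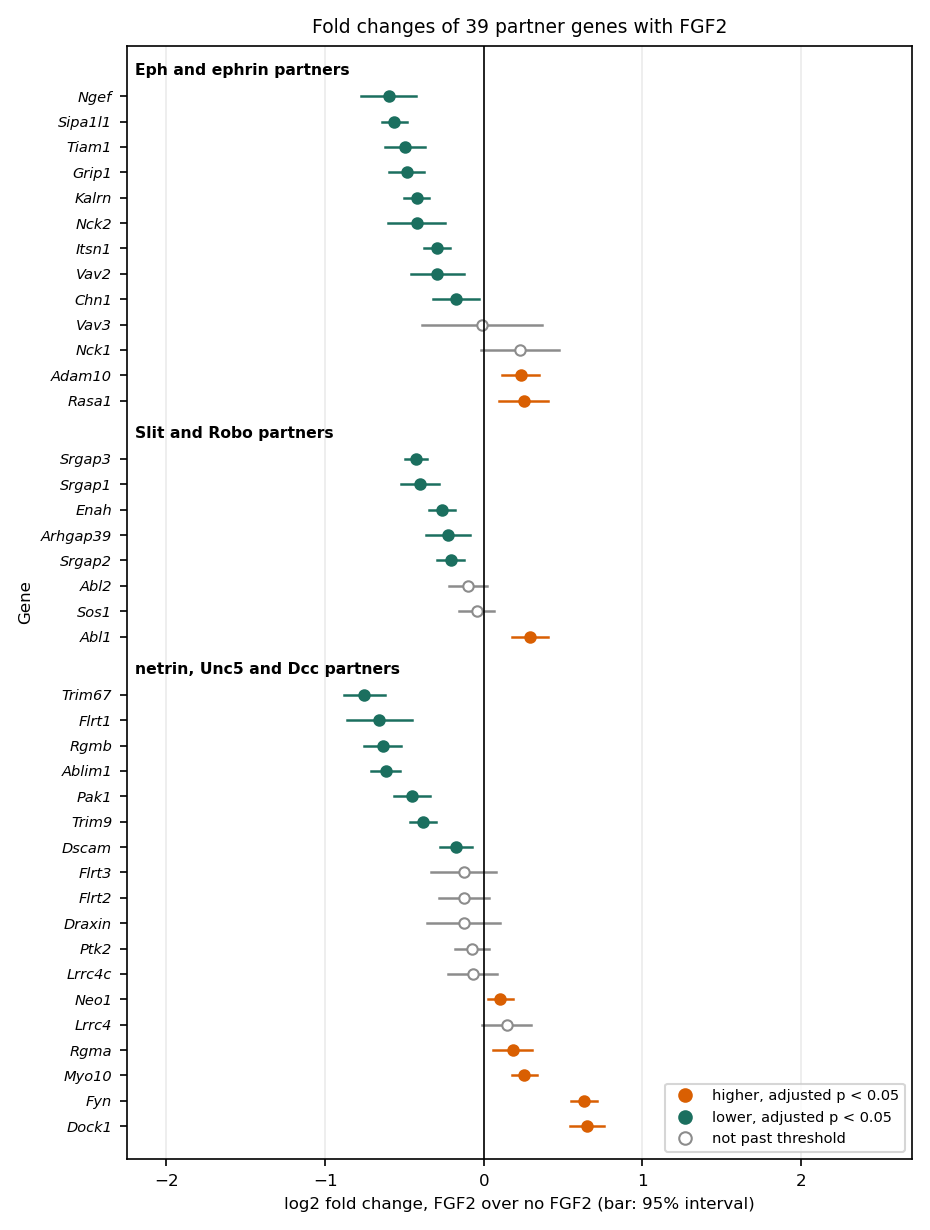
Log2 fold change of FGF2 over no FGF2 for 39 signalling partner genes in 3 lists, with bars for the 95% interval from edgeR, orange for genes that rose, green for genes that fell and open grey points for genes past no threshold. Dock1 and Fyn at 0.65 and 0.63 are furthest to the right, and Trim67 at -0.75 is furthest to the left.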

How the data were processed

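Total RNA of cultured mouse PFC cells was sequenced, with 2 libraries for each treatment. The authors mapped reads to mm10 with HISAT2 2.1.0, kept a mapping quality of at least 20 and counted reads per gene with HTSeq 0.11.2. They deposited raw counts, with no normalization. The annotation release and strand setting are not given in the sources used here, and reads of near-identical or overlapping genes may be lost. Gene names and exon lengths came from GENCODE M21 by identifier (55240 of 55421 genes). Reads in no feature (43.2% to 45.9%) and the other 4 tally lines were left out.

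The counts were fitted in edgeR 4.0.16 under R 4.3.3 (quasi-likelihood, TMM, filterByExpr, robust, Benjamini-Hochberg over 17144 genes). SE came from the F statistic. Depth limits low genes, and 3 counts equal 0.277 to 0.331 CPM. Libraries of a group differed by more than sampling noise (chi-square per degree of freedom 2.28 and 1.76) and were kept apart. DESeq2 1.42.0, limma-voom 3.58.1, other scalings and filters, a replicate block, each library left out and a threshold of 0.01 were alternatives. Scripts were tested on simulated data. BLAST 2.17.0 searched near-identical stretches (at least 100 bases, 95% identity).

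Every member is given, with full values where the adjusted p was below 0.05 and the mean at least 5 CPM. Of each partner list, up to 3 rises and 3 falls of the largest size are named. The members, partner and marker lists were chosen with earlier results of these data known.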

Additional observations from a re-analysis of the deposited data

How the results depend on the processing

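Of the 23 called guidance genes, 16 (4 higher and 12 lower) kept their call under every alternative, 7 lost it under at least 1, all 7 of them with DESeq2, and 0 turned in direction. With DESeq2 the guidance genes that rose numbered 4 and those that fell 12, and the partner genes that rose numbered 4 and those that fell 17. Leaving out 1 library at a time gave 5 to 7 rising and 14 to 15 falling guidance genes and 5 to 8 rising and 18 to 21 falling partner genes, with the lowest rising counts, 5 and 5, when replicate 2 of the untreated group was left out. Of the 13 genes that were not called, 4 turned in direction and 0 passed the threshold under an alternative. The log2 fold change of Efnb1 was 0.0037 without the expression filter, 0.0019 with at least 10 counts in every library, and between -0.22 and 0.18 with 1 library left out. With 1 library left out it ran from -0.0654 to 0.037 for Ephb2, from -0.037 to 0.0731 for Slit2 and from -0.0678 to 0.22 for Unc5b. Without division by length the log2 ratios of the class sums were -0.23 for EphA, 0.0731 for EphB, -0.38 for ephrin-A, -0.57 for ephrin-B, 0.46 for netrin, -0.54 for Slit and -0.0307 for Unc5 and Dcc, and with the longest transcript as length, added after seeing the data, -0.24 for EphA, -0.60 for ephrin-B, -0.60 for Slit and -0.12 for Unc5 and Dcc. Except where the construction shows it, the cause of these shifts was not tested. Replicate numbers are shared between groups, and deviations of same-numbered libraries correlated at 0.0062 over 16756 genes. Noise of single libraries is part of each deviation, so this value cannot show whether same-numbered libraries were paired. The labels do not say either. With the replicate number as a block, 8 guidance genes rose and 15 fell, and 8 partner genes rose and 20 fell. Scaling by total counts moved the log2 fold changes by -0.0175, and genes near 3 counts per library are beyond this depth.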
